A study of Mus musculus with 24 samples.

Results

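The proteasome is the barrel-shaped protease that cuts up proteins marked with ubiquitin. Its genes were examined in alveolar type II cells, the surfactant-making cells of the lung, taken freshly from mice and cultured, after treatment with donors of hydrogen sulfide (H2S). Members were all genes of the array whose name begins with Psma, Psmb, Psmc, Psmd, Psme, Psmf or Psmg followed by a number, each read from the probe with the highest mean signal over all 24 arrays. This gave 49 genes of 34832 genes or unnamed probes, and all 49 probe accessions carried the same symbol in RefSeq. The name pattern also takes in Psmc3ip, a partner of the recombination machinery in meiosis and DNA repair that is no part of the proteasome, so 48 of the 49 are proteasome genes. It was kept because the pattern defines the set, and counts without it are given where it matters.

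The cells had grown at an air-liquid interface for 3 days, as a monolayer. In the first experiment, of 16 arrays, they received the medium DMEM as vehicle or 100 µM NaHS, which releases H2S fast, for 6 h or 24 h. In the second, of 8 arrays, they received 100 µM GYY4137, which releases H2S slowly, for 24 h in 21% O2 (normoxia) or 85% O2 (hyperoxia), and no donor-free group is analysed here. Each of the 6 groups held 4 arrays of total RNA, and strain, sex and age of the mice are not given in the sources used here. Because nothing says that the 4 came from separate cultures or animals, each p measures only the spread between arrays, which may be technical. The number of arrays limits the precision. In bulk RNA, fewer cells of a type and less RNA per cell cannot be told apart.

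Between 54.8% and 77.5% of the probes of an array lay well above background, and 0 spots were saturated. Slides 1 and 2 each carried 2 arrays of every group of the NaHS experiment, replicates 1 and 3 on slide 1 and replicates 2 and 4 on slide 2. All 21% O2 arrays lay on slide 3 and all 85% O2 arrays on slide 4, so slide and oxygen cannot be told apart. Of 12 alveolar type II markers, 9 were well above background on all 24 arrays, among them the surfactant protein genes Sftpc and Sftpb and the lipid transporter gene Abca3, and Slc34a2 on 1 array. Markers of other cells were measured too, with 9 of 10 fibroblast and smooth muscle markers and 10 of 16 macrophage markers detected on every one of the 16 arrays with NaHS or its vehicle.

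The standard proteasome is built from a 20S core and a 19S cap. The core stacks rings of alpha subunits, which form the gate, around rings of beta subunits, of which Psmb6, Psmb7 and Psmb5 cut proteins. The cap holds ATPases that unfold the substrate and non-ATPase subunits that bind and trim ubiquitin. After interferon, cells replace the cutting subunits by Psmb9, Psmb10 and Psmb8, which gives the immunoproteasome, a form that makes peptides for display on MHC class I. When the proteasome is short, the transcription factor NRF1 (Nfe2l1) raises its subunit genes together, and the related NRF2 (Nfe2l2), the main factor of the antioxidant response, reads similar promoter elements.

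Of the 49 members, 47 were well above background on at least 4 arrays of each experiment and entered the tests. The other 2, both known for use in few tissues, were the testis core subunit Psma8, above background on 0 of 24 arrays, and the thymus core subunit Psmb11, above it on 1. The 47 fell into 7 alpha ring, 7 standard beta ring, 3 immunoproteasome, 6 ATPase and 11 non-ATPase genes, 3 chaperones of 19S assembly, 4 chaperones of 20S assembly, 5 activators or inhibitors and Psmc3ip. On 44 of them the signal was above background on all 24 arrays. For Psma1, Psmc4 (vehicle 6 h replicate 1) and Psma5 (vehicle 6 h replicate 4) the spot of 1 array had been left out for uneven signal or as an outlier, and the fit dropped that array for them. All levels are log2 of the processed signal minus the array's 75th percentile, and a difference of 1 is a doubling.

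Promoters are shown for a few members, because the antioxidant element and the interferon element bear on the comparison of oxygen levels. RefSeq windows (GRCm38.p6) of 300 bases, 250 before the start site and 50 after it, were found for 41 of 49 members (44 windows). Each was searched on both strands for TGACNNNGC, the core of the antioxidant response element, the core of the interferon response element (GAAA, any 2 bases, GAAA) and CCAAT, the NF-Y box. In the member windows 1 pair of matches overlapped. Below, each run stops at the start site and capitals mark the matches. Psmb5 (chr14:54617996-54618245, minus strand), Psmb6 (chr11:70525107-70525356, plus strand) and Psmd9 (chr5:123227940-123228189, plus strand) hold the antioxidant core, and Psmd9 the interferon core as well.
Psmb5: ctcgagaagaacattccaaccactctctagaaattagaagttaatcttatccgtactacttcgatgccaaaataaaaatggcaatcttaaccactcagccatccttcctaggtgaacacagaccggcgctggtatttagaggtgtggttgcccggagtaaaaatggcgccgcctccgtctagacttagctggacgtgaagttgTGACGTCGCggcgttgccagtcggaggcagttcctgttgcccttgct
Psmb6: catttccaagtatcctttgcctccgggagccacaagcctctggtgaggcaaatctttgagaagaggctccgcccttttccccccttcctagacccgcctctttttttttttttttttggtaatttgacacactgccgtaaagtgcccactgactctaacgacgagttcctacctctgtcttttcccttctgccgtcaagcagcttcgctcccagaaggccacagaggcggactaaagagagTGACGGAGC
Psmd9: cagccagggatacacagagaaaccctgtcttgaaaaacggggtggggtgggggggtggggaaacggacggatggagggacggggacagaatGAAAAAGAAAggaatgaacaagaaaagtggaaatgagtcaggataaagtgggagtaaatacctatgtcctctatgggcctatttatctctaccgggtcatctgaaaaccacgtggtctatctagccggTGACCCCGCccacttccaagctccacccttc
Psmb8 (chr17:34197945-34198194, plus strand), Psmd8 (chr7:29180674-29180923, minus strand) and Psmg1 (chr16:95990961-95991210, minus strand) hold none of the 3 motifs in their windows, and the 200 bases of Psmb9 (chr17:34187331-34187530, minus strand) hold 1 NF-Y box.
Psmb9: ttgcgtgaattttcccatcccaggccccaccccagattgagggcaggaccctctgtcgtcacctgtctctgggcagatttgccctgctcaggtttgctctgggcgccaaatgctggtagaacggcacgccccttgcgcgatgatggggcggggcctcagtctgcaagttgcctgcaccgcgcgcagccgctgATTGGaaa
Psmb8: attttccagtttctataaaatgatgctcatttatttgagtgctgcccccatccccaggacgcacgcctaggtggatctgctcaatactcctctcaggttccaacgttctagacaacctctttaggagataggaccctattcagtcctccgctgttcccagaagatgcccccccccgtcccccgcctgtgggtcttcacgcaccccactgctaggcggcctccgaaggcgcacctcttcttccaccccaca
Psmd8: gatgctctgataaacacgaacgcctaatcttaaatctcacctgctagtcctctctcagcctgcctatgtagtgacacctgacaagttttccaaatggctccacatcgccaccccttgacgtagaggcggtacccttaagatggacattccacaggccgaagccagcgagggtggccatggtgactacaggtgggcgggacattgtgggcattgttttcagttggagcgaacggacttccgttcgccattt
Psmg1: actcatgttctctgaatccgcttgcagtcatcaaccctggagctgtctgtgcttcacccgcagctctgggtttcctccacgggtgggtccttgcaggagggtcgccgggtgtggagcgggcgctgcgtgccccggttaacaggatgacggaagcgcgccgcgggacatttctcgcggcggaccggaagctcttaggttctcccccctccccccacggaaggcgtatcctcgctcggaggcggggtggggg
The antioxidant core stood in 13.6% of the member windows (Psmb5, Psmb6, Psmc6, Psmd12, Psmd9 and Psme4) and in 12.4% of all 32851 windows. The NF-Y box stood in 34.1% of the member windows and 37.4% of all. The interferon core stood in 11.4% of the member windows (Psmb3, Psmd4, Psmd9, Psme1 and Psmg4) and 3.44% of all. A match is a description of the letters, not a bound site.

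The first question was whether NaHS changes proteasome genes. At 6 h, limma called 0 of 47 members between NaHS and vehicle, and 0 of 27177 genes in all (0%). The members' differences ran from -0.18 (Psmb5) to 0.18 (Psmb8), with a median of -0.028 beside -0.0025 over all genes. At an unadjusted p under 0.05, limma called 0 members and 0.567% of all genes, and the groups did not overlap for 0 members and 0.614% of all genes. With the slide or the replicate number in the fit as a block, limma called 0 of 47 members and 0% of all genes. In either of these fits 1 member had an unadjusted p under 0.05. The share of all genes at that p was not counted with a block, so nothing is read from this. For 45 of 47 members the 95% confidence interval left room for less than a 1.5-fold change in either direction, against 48.1% of all genes, and within a 2-fold change for 47.

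Psmb5, the subunit with chymotrypsin-like activity, read 7.58, 7.35, 7.67 and 7.03 in the 4 vehicle arrays at 6 h and 7.41, 6.99, 7.49 and 7.04 in the NaHS arrays. Its immunoproteasome counterpart Psmb8 read 0.91, 0.42, 0.44 and 1.66 in vehicle and 0.86, 1.12, 0.57 and 1.61 with NaHS. For both the groups overlapped, and Psmb8 was highest in replicate 4 of either group. Psmb9 was highest in the same 2 arrays, at -0.09 in vehicle against -2.21 to -1.30 in the other 3, and at -0.30 with NaHS against -1.99 to -1.08. The summed levels of the alveolar type I, airway and alveolar type II markers were also highest there, for type II, at 6.84 in vehicle against 5.87 to 6.09 and at 7.34 with NaHS against 5.91 to 6.25. So was that of 10 antigen processing genes, at 7.48 in vehicle against 7.07 to 7.12 and at 7.45 with NaHS against 7.13 to 7.18. The part of these genes in the Psmb8 and Psmb9 values was not tested. The differences between NaHS and vehicle were -0.18 ± 0.16 (SE) for Psmb5, 0.18 ± 0.28 for Psmb8 and 0.028 ± 0.42 for Psmb9. Unless a block or a slide is named, errors and intervals of the NaHS experiment come from a fit without slide or replicate number. They therefore include the differences between slides and between replicates.

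The trypsin-like subunit Psmb7 differed by 0.020 ± 0.095, its counterpart Psmb10 by -0.017 ± 0.087 and the caspase-like subunit Psmb6 by -0.071 ± 0.079. Among the caps that open the core, Psme1 and Psme2, which form the interferon-induced activator, differed by 0.091 ± 0.10 and 0.062 ± 0.12. The nuclear activator Psme3 differed by -0.011 ± 0.15 and Psme4, the single-chain activator, by 0.059 ± 0.16. The negative differences with the smallest p were those of the alpha subunits Psma5 (-0.17 ± 0.11) and Psma4 (-0.12 ± 0.084) and the chaperone Psmd9 (-0.13 ± 0.098). None of these passed the test, with limma's adjusted p at 1.0 for each.

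At 24 h, limma again called 0 of 47 members and 0 of 27177 genes (0%). Differences ran from -0.089 (Psmc1) to 0.20 (Psmb9), with a median of 0.028 for the members and -0.00044 over all genes. An unadjusted p under 0.05 was reached by 0 members and 2.22% of all genes. The groups did not overlap for 0 members, beside 1.70% of all genes. At 24 h the confidence interval left room for less than a 1.5-fold change in either direction for 45 of 47 members. The same held for 45.0% of all genes, and 46 members stayed within a 2-fold change.

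Psmb8 read 1.09, 1.0, 1.42 and 0.88 in vehicle at 24 h and 1.11, 0.85, 1.37 and 1.46 with NaHS, a difference of 0.10 ± 0.28. Psmb5 read 7.54, 7.23, 7.55 and 7.31 in vehicle and 7.48, 7.30, 7.49 and 7.12 with NaHS, a difference of -0.063 ± 0.16. The groups overlapped in both. Psmb9 differed by 0.20 ± 0.42, with an interval from -0.69 to 1.10, the widest of the members and the only one past a 2-fold change. Psmb6 (-0.041 ± 0.079), Psmb7 (0.076 ± 0.095), Psmb10 (-0.061 ± 0.087), Psme1 (0.061 ± 0.10), Psme2 (0.034 ± 0.12), Psme3 (0.17 ± 0.15) and Psme4 (0.087 ± 0.16) had narrower intervals. The smallest p belonged to the ATPase Psmc5 (0.11 ± 0.073), the chaperone Psmd5 (0.14 ± 0.098) and Psmc3ip (0.18 ± 0.14) on the positive side and to the ATPases Psmc3 (-0.078 ± 0.099) and Psmc1 (-0.089 ± 0.14) on the negative side.

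The test of the difference between the 2 NaHS effects called 0 of 47 members and 0 of 27177 genes (0%), with 0 members and 1.09% of all genes at an unadjusted p under 0.05. With the slide as a block 1 member reached that p, and with the replicate block 0, without a share of all genes to set beside these counts. Without a block, Psmd9 had the smallest p, with a difference of effects of 0.26 ± 0.14, followed by Psmc3ip at 0.30 ± 0.19 and Psmc5 at 0.16 ± 0.10. On the negative side stood the core subunit Psmb4 at -0.047 ± 0.12, Psmb10 at -0.044 ± 0.12 and Psmd8 at -0.049 ± 0.17. Limma's adjusted p was 1.0 for each of these, with less than a 1.5-fold change inside the interval for 39 of 47.

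**Figure D1:**
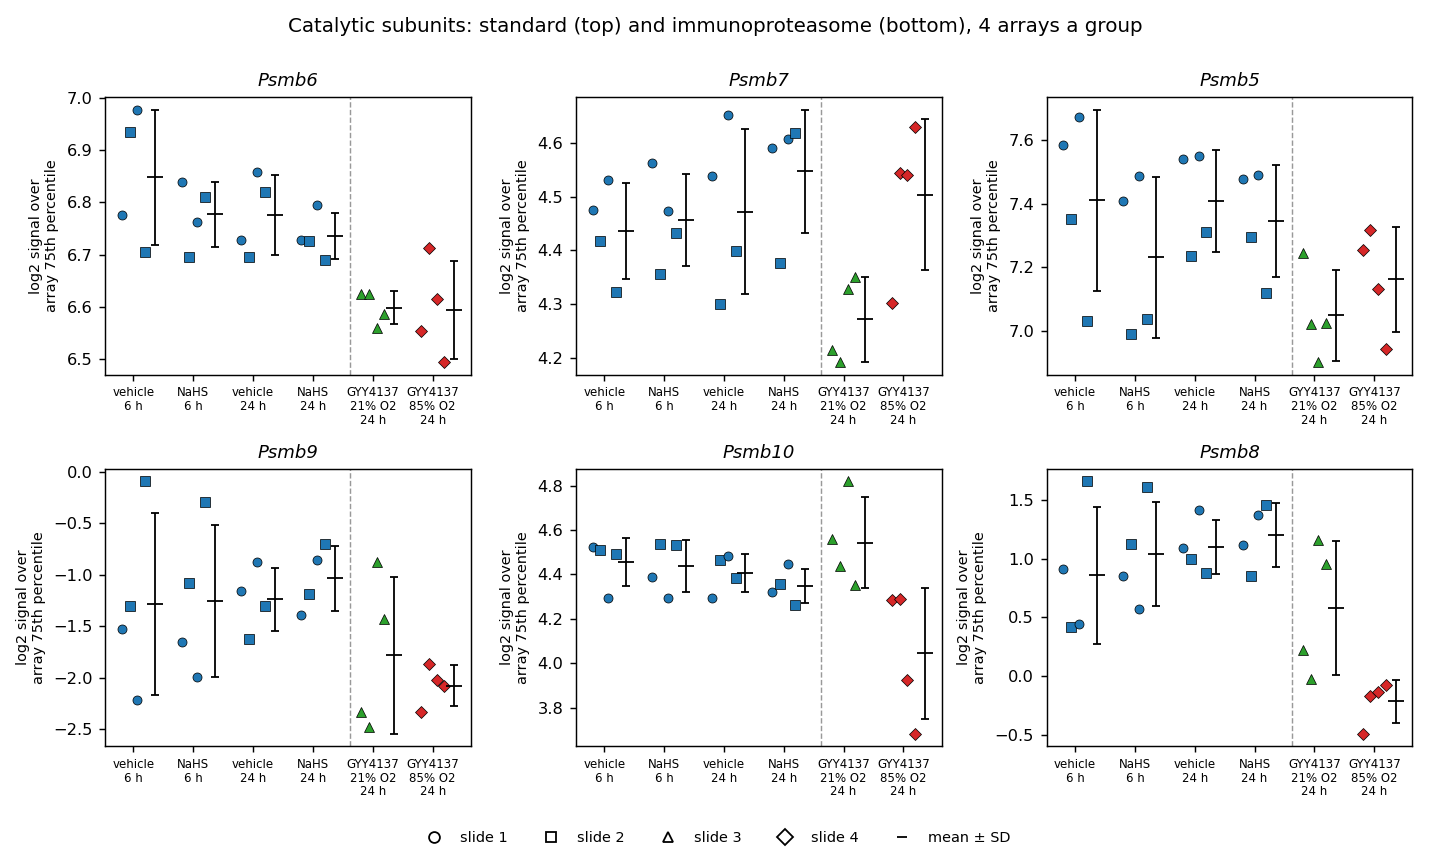
Levels of the 3 standard cutting subunits (top) and their immunoproteasome counterparts (bottom) on each array, for the 6 groups, as log2 signal minus the 75th percentile of its array. Symbols give the slide and bars the mean ± SD of 4 arrays. Psmb8 lies between -0.49 and -0.07 in the 85% O2 arrays and between -0.02 and 1.66 in all others, and NaHS and vehicle arrays of the same time overlap in every panel.

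The members varied little across the 4 groups of the NaHS experiment. The spread between the lowest and the highest group mean had a median of 0.11 for the 47 members and 0.34 for all genes, and 39 of the 47 had a spread under 0.2. It was smallest for Psmf1, a proteasome inhibitor, at 0.029, and largest for Psmc3ip, at 0.43. The SD between arrays of a group had a median of 0.16 for the members and 0.33 for all genes in this experiment, and 0.13 and 0.26 in the GYY4137 experiment. These medians describe the members, whose brightness was not matched to that of all genes.

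Culture time was compared between 24 h and 6 h. In vehicle, limma called 0 of 47 members, while 316 of 27177 genes passed (1.16%, with 0.688% higher and 0.475% lower at 24 h). At an unadjusted p under 0.05 stood 2 members, beside 12.4% of all genes, and the groups did not overlap for 0 members, beside 7.50% of all genes. The 2 were the core subunit Psmb2, with a difference of 0.23 ± 0.10 (limma, adjusted p = 0.369), and Psmc3ip, with -0.43 ± 0.14 (adjusted p = 0.158). Psmc3ip read 0.11, -0.31, 0.07 and -0.02 at 6 h and -0.64, -0.46, -0.27 and -0.51 at 24 h. Its groups overlapped through replicate 2 at 6 h. With the slide as a block, limma called 0 of 47 members and 3.20% of all genes, with an adjusted p of 0.0646 for Psmc3ip. With the replicate block it called 0 of 47 and 3.89% of all genes, with an adjusted p of 0.0551. With either block 4 members had an unadjusted p under 0.05. The 12.4% of all genes belongs to the fit without a block, and no such share was counted with one, so the counts cannot be compared.

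Psmb2 read 2.92, 2.94, 3.01 and 2.77 in vehicle at 6 h and 3.20, 2.91, 3.23 and 3.23 at 24 h, where replicate 2 stood apart from the rest. The cap subunit Psmd8 differed by 0.24 ± 0.12 (adjusted p = 0.457) and Psmb8 by 0.24 ± 0.28 (adjusted p = 0.929). On the negative side Psme3 differed by -0.29 ± 0.15 (adjusted p = 0.489) and the lid subunit Psmd3 by -0.17 ± 0.11 (adjusted p = 0.647). Psmb5 (-0.0016 ± 0.16), Psmb6 (-0.073 ± 0.079), Psmb7 (0.035 ± 0.095), Psmb9 (0.043 ± 0.42), Psmb10 (-0.048 ± 0.087), Psme1 (0.046 ± 0.10), Psme2 (0.087 ± 0.12) and Psme4 (-0.17 ± 0.16) did not pass either. Among the regulators of proteasome genes, Nfe2l2 rose in vehicle, by 0.45 ± 0.093 (limma, adjusted p = 0.039), and Nfe2l1 differed by 0.47 ± 0.15 (adjusted p = 0.171), the only list member of its pathway to pass being Nfe2l2, 1 of 9.

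With NaHS, limma called 0 of 47 members between 24 h and 6 h, and 11 of 27177 genes (0.0405%, with 0.0331% higher and 0.00736% lower). At an unadjusted p under 0.05 stood 1 member, Psmb2, beside 8.29% of all genes. Psmb2 had the smallest p, with 2.99, 2.82, 2.83 and 2.98 at 6 h and 3.17, 3.0, 3.19 and 3.35 at 24 h, a difference of 0.27 ± 0.10 (adjusted p = 0.457). Its groups did not overlap, nor did those of Psmd4, the ubiquitin receptor of the cap. That is 2 of 47 members, against 6.27% of all genes. With the slide or the replicate number as a block, 3 members had an unadjusted p under 0.05, again with no share of all genes counted for these fits. Psmc5 differed by 0.13 ± 0.073 and Psmd8 by 0.19 ± 0.12, Psmc3 by -0.11 ± 0.099, Psmb10 by -0.092 ± 0.087 and Psmc3ip by -0.14 ± 0.14, none past the threshold. Psmb2 differed by 0.23 in vehicle and by 0.27 in NaHS, neither past the threshold. The 2 comparisons use different arrays, but on the same slides and with the same replicate numbers, so they are not independent.

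The comparisons of the NaHS experiment were also made within each slide. For NaHS against vehicle at 6 h, the members' median was -0.057 within slide 1 and -0.020 within slide 2, and 32 of 47 had the same sign on both. At 24 h the medians were -0.0065 and 0.040, with the same sign for 25 of 47. For 24 h against 6 h in vehicle the medians were -0.033 and -0.046, with the same sign for 25 of 47. In NaHS they were 0.030 and 0.035, with the same sign for 30 of 47. The share of all genes with the same sign on both slides was not counted, so these counts do not show that differences repeat. Psmb9 differed by 0.85 between 24 h and 6 h in vehicle within slide 1 and by -0.76 within slide 2. Psmc3ip differed over the same time by -0.55 ± 0.19 within slide 1 and -0.32 ± 0.15 within slide 2, Psmb2 by 0.25 ± 0.096 and 0.21 ± 0.20, and Psmd8 by 0.28 ± 0.12 and 0.21 ± 0.15. No member was called within a slide. Over the same time in vehicle, all 15 macrophage markers tested had positive differences (median 0.87, 1 called) and all 5 airway markers negative ones (median -2.79, 1 called), and the part of these cells in the values of the members was not tested.

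Slides 1 and 2 differed in many members. In a comparison added after the data were seen, with the group in the fit, 26 of 47 members were lower on slide 2 than on slide 1 and 0 higher, with a median of -0.17. Of all genes 48.1% were called, 30.6% higher and 17.5% lower on slide 2, with a median of 0.016. The lid subunit Psmd13 fell most, by 0.41 ± 0.053, and Psmb5 fell by 0.36 ± 0.058. The 3 immunoproteasome subunits were the only members with positive differences, none called, with 0.51 ± 0.27 for Psmb9. Each group held 2 arrays of either slide. The slides carried different replicate numbers, so slide and set of replicates cannot be told apart. On slide 1, 54.8% to 57.2% of the probes of an array lay well above background, and 67.7% to 73.8% on slide 2. In vehicle at 6 h Psmb8 and Psmb9 had low means, 0.86 and -1.28, and Psmb10 a higher one, 4.46. Psmc3ip, at -0.036, was also dim but had a negative difference, -0.18. The part of signal level in the slide differences was not tested.

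**Figure D2:**
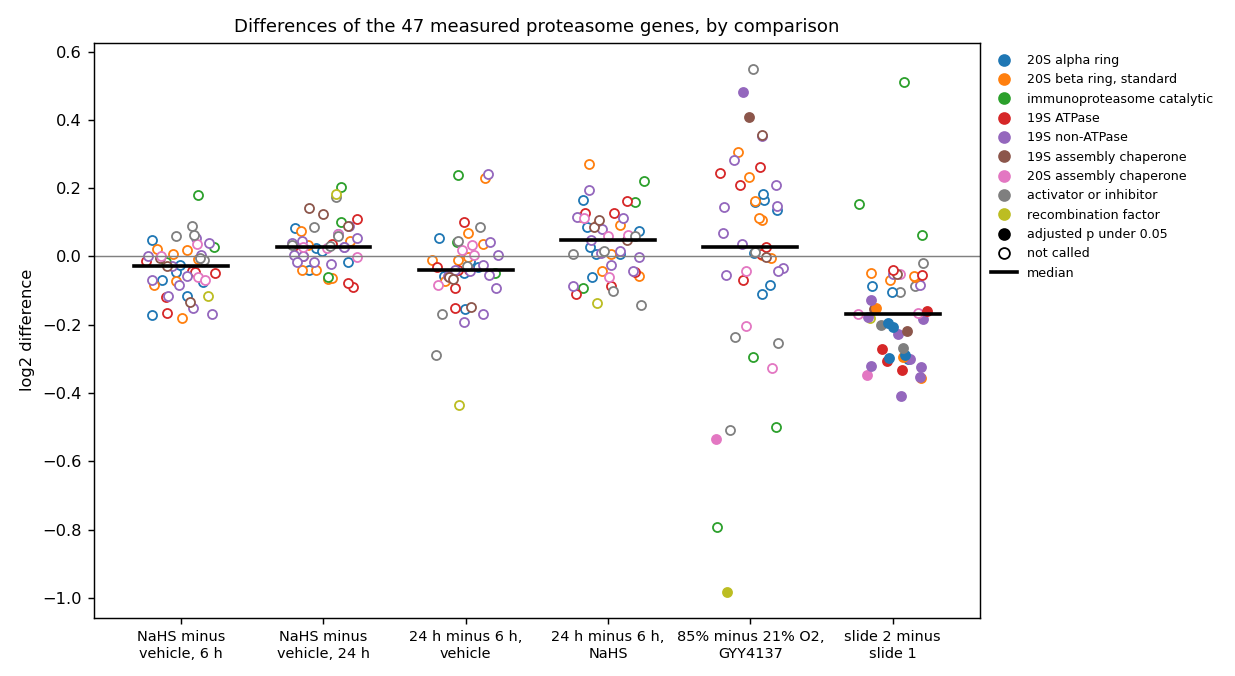
Log2 differences of the 47 measured members in 5 comparisons between groups and between slides 2 and 1, each point a gene, coloured by role, with the median as a bar and filled points for adjusted p under 0.05. No point is filled in the NaHS and time comparisons, 4 are filled for 85% against 21% O2 and 26 between the slides.

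The second experiment asked what hyperoxia does while a slow H2S donor is present. With GYY4137, 4 of 47 members were called between 85% and 21% O2, against 4764 of 27945 genes, or 17.0%. Higher at 85% O2 were Psmd8 and Psmd5, 2 of 47 members against 10.7% of all genes. Lower were Psmg1 and Psmc3ip, 2 of 47 against 6.36%, or 1 of 46 without Psmc3ip. At an unadjusted p under 0.05 stood 12 members, beside 35.0% of all genes. The members' median difference was 0.029, beside 0.057 over all genes.

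Psmd8 read 5.03, 4.96, 4.64 and 4.96 in 21% O2 and 5.34, 5.27, 5.43 and 5.47 in 85% O2, with means of 4.90 ± 0.18 and 5.38 ± 0.087 (SD, n = 4). The groups did not overlap, and the level rose by 0.48 ± 0.12 on the log2 scale, a 1.40-fold rise (limma, adjusted p = 0.0303). Psmd5, a chaperone of cap assembly, read 3.24, 3.18, 3.15 and 3.04 in 21% O2 and 3.41, 3.54, 3.56 and 3.73 in 85% O2. It rose by 0.41 ± 0.11, or 1.33-fold (adjusted p = 0.0367), again with no overlap. Psmd8's 85% O2 mean lay near its vehicle and NaHS means at 24 h, 5.34 ± 0.16 and 5.34 ± 0.13, but those belong to the other experiment and other slides.

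Psmg1, a chaperone that builds the alpha ring, read 4.49, 4.58, 4.29 and 4.41 in 21% O2 and 4.10, 4.05, 3.82 and 3.68 in 85% O2. It fell by 0.53 ± 0.13, or 1.45-fold (limma, adjusted p = 0.0287), with no overlap, and its second probe differed by -0.39 ± 0.11 (adjusted p = 0.051 over all probes). Psmc3ip read 0.29, 0.03, -0.0045 and -0.48 in 21% O2 and -0.77, -1.32, -0.90 and -1.10 in 85% O2. It fell by 0.98 ± 0.19, or 1.97-fold (adjusted p = 0.013), with no overlap. The probes lie, on mm9, at chr7:29961170-29962121 for Psmd8, chr2:34708108-34708167 for Psmd5, chr16:96201564-96201623 for Psmg1 and chr11:100954219-100954278 for Psmc3ip, all on the minus strand. Whether they fall in coding sequence or a UTR was not looked up, since no annotation of that build was used.

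**Figure D3:**
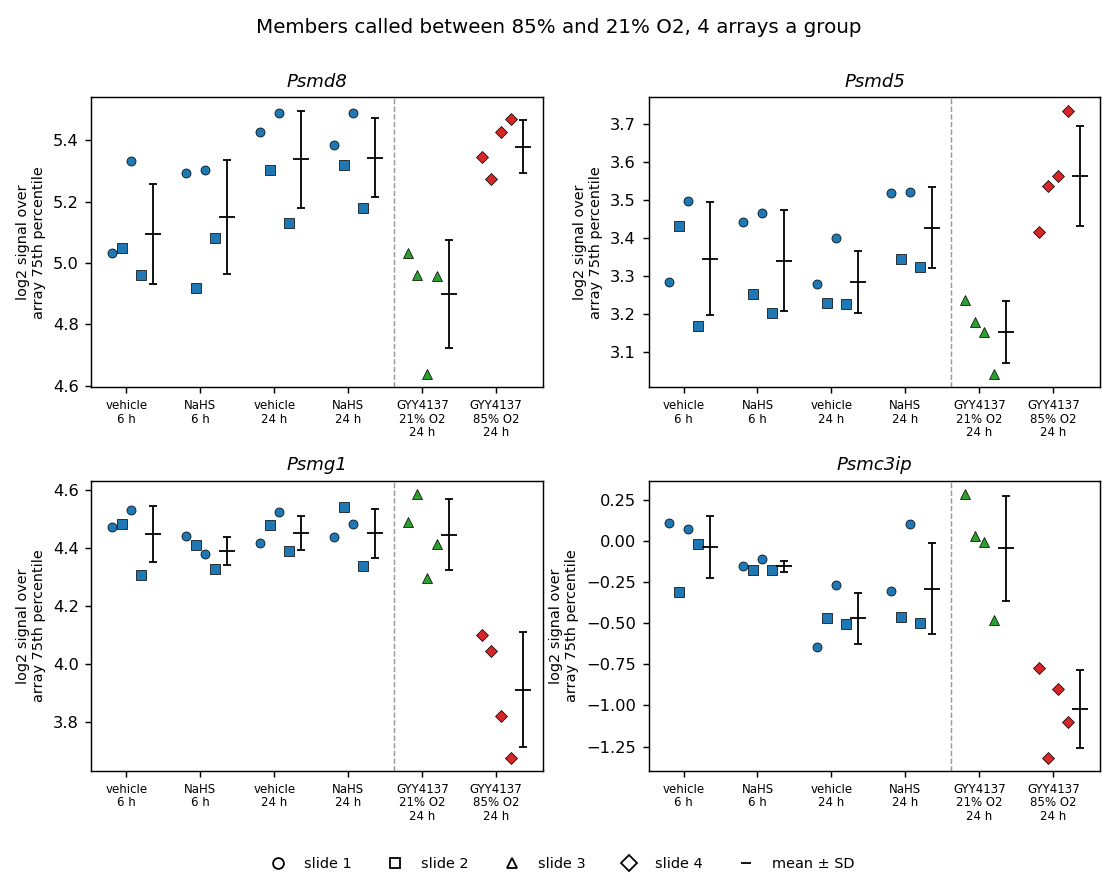
Levels of Psmd8, Psmd5, Psmg1 and Psmc3ip on each array, as log2 signal over the array's 75th percentile, with symbols for the slide and the mean ± SD of 4 arrays. In each panel the 85% O2 arrays (red, slide 4) lie apart from the 21% O2 arrays (green, slide 3), higher for Psmd8 and Psmd5 and lower for Psmg1 and Psmc3ip.

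These calls stand close to the threshold, apart from that of Psmc3ip. With the replicate number as a block, limma called 2 of 47 members (17.3% of all genes), Psmg1 (adjusted p = 0.0345) and Psmc3ip (adjusted p = 0.0193), while Psmd8 (adjusted p = 0.0587) and Psmd5 (adjusted p = 0.079) lost the call. Psmd8 also lost it without replicate 2, 3 or 4 of 21% O2 or replicate 1, 3 or 4 of 85% O2 (adjusted p from 0.0533 to 0.087). Psmd5 lost it without replicate 2, 3 or 4 of either group (0.0572 to 0.0948), and Psmg1 without replicate 2 or 4 of 21% O2 or 3 or 4 of 85% O2 (0.0566 to 0.0851). The number of members called was 2 without 21% O2 replicate 2 or 3, and 1 without 21% O2 replicate 4 or 85% O2 replicate 3 or 4. Scaling each array to its median instead of its 75th percentile lowered the median of all genes from 0.057 to -0.087 and moved the share of calls that are higher from 62.7% to 34.6% over all genes. On that scale 0 members were higher and 5 lower, Psmg1, Psmc3ip, Psmb8, Psmb10 and Psme4.

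The subunits of the standard proteasome moved little. Of the 31 standard core and cap subunits, 24 had positive differences, with a median of 0.13, and 1, Psmd8, was called. Over all genes 55.5% of the differences were positive, with a median of 0.057, and 17.0% were called. With median scaling 15 of the 31 were positive and their median was -0.009, so this direction rests on the scaling. By part, the medians were 0.13 for the alpha ring, 0.11 for the standard beta ring, 0.12 for the ATPases and 0.15 for the non-ATPase cap subunits. The alpha ring ran from -0.11 (Psma4) to 0.18 (Psma6), the beta ring from -0.0045 (Psmb6) to 0.31 (Psmb3), the ATPases from -0.068 (Psmc3) to 0.26 (Psmc1) and the non-ATPases from -0.054 (Psmd14, the deubiquitinase) to 0.48. Second probes differed by 0.038 ± 0.10 for Psma4, 0.18 ± 0.13 for Psmc3 and 0.38 ± 0.13 for Psmc1, so these ends depend on the probe. Psmd13 (0.35 ± 0.12, adjusted p = 0.0712) and Psmd11 (0.28 ± 0.090, adjusted p = 0.0636) came next to Psmd8 and were just outside the threshold.

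Read from the probe chosen for each gene, the 3 immunoproteasome subunits had negative differences, with a median of -0.50, and 0 of 3 were called. Psmb8 read 0.22, -0.02, 1.16 and 0.95 in 21% O2 and -0.49, -0.17, -0.13 and -0.07 in 85% O2, a difference of -0.79 ± 0.27 (limma, adjusted p = 0.0744, 95% confidence interval from -1.41 to -0.18). Psmb10 read 4.56, 4.44, 4.82 and 4.35 in 21% O2 and 4.28, 4.29, 3.92 and 3.68 in 85% O2, a difference of -0.50 ± 0.17 (adjusted p = 0.0831). The groups did not overlap in either gene. Psmb9 read -2.34, -2.48, -0.88 and -1.43 in 21% O2 and -2.34, -1.87, -2.02 and -2.08 in 85% O2, a difference of -0.29 ± 0.34 (adjusted p = 0.576), with overlap. In 21% O2, replicates 3 and 4 were the highest for both Psmb8 and Psmb9, and those 2 arrays also had the higher summed level of the alveolar type II markers, 5.92 and 6.08 against 5.54 and 5.53. The same held for the antigen processing genes, 7.21 and 7.19 against 6.99 and 6.84, and the alveolar type I markers, 7.12 and 7.03 against 6.85 and 6.97. The part of these genes in the immunoproteasome values was not tested.

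Psmb8 was called without 21% O2 replicate 2 (-0.99, adjusted p = 0.047), with the normexp background (-0.78, adjusted p = 0.028) and with median scaling (-0.94, adjusted p = 0.0433), and Psmb10 with median scaling (-0.64, adjusted p = 0.0303). A second Psmb9 probe, well above background on 9 of 24 arrays, differed by 1.08 ± 0.33 (adjusted p = 0.059 over all probes), the opposite sign to the first. Of Psmb9, then, no direction is given.

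The standard cutting subunits gave Psmb5 0.11 ± 0.13, Psmb6 -0.0045 ± 0.096 and Psmb7 0.23 ± 0.11, none called. Each difference between an immunoproteasome subunit and its standard counterpart within an array is free of the scaling between arrays, and its change between oxygen levels was -0.91 for Psmb8 and Psmb5 (SD 0.67 in 21% and 0.31 in 85% O2), -0.29 for Psmb9 and Psmb6 (SD 0.79 and 0.15) and -0.73 for Psmb10 and Psmb7 (SD 0.21 and 0.41). Only for Psmb10 and Psmb7 did the groups not overlap. These changes compare the 2 probes chosen and carry no test. That of Psmb9 and Psmb6 was smaller than its SD in 21% O2, so unequal change is not shown for this pair. The overlap of such differences was not counted over all genes.

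**Figure D4:**
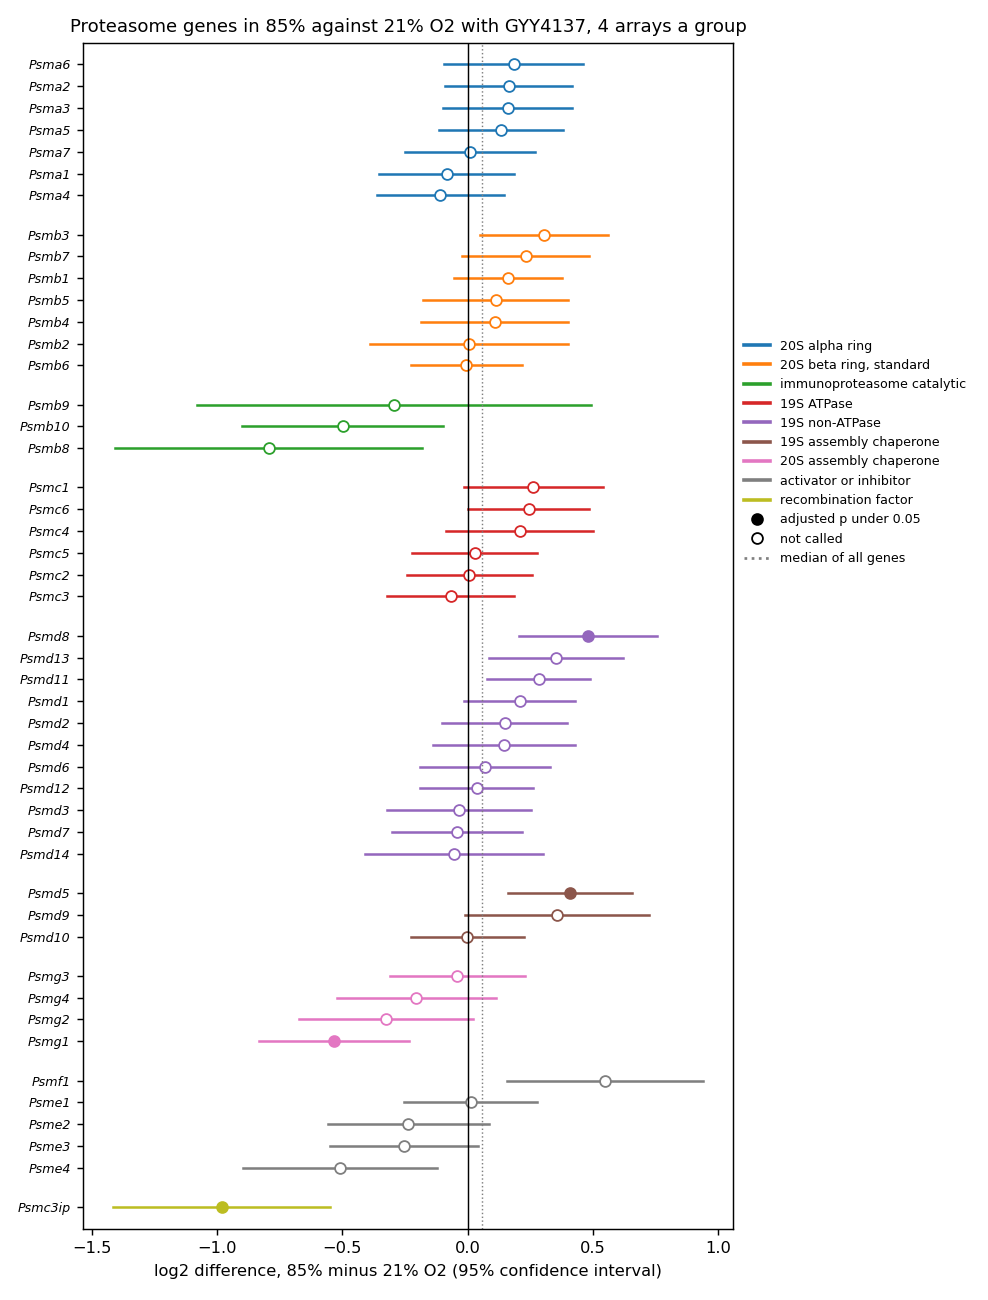
Log2 differences between 85% and 21% O2 for the 47 measured members, grouped and coloured by role, with 95% confidence intervals over 4 arrays a group and filled points for adjusted p under 0.05. The dotted line marks the median of all genes at 0.057. The 4 filled points are Psmd8 and Psmd5 on the right and Psmg1 and Psmc3ip on the left.

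The 4 chaperones of core assembly had differences from -0.53 (Psmg1) to -0.041 (Psmg3), with a median of -0.27 and 1 called, and 0 of 4 were positive under each scaling tried. The 3 chaperones of cap assembly had a median of 0.36, with Psmd5 called, Psmd9 at 0.36 ± 0.16 (adjusted p = 0.153) and Psmd10 at -0.0016 ± 0.099. The second probe of Psmd9 differed by 0.11 ± 0.15 and that of Psmd10 by 0.11 ± 0.14. With median scaling Psmd5 differed by 0.27 ± 0.13 (adjusted p = 0.162) and 0 of the 3 cap chaperones were called. The core and cap chaperones were not tested against each other. Among activators, Psme4 differed by -0.51 ± 0.17 (adjusted p = 0.072), while its second probe differed by 0.094 ± 0.20. Psme1 differed by 0.012 ± 0.12, Psme2 by -0.24 ± 0.14 and Psme3 by -0.25 ± 0.13, none called. Other probes of Psme2 differed by -0.26 ± 0.15 and 0.25 ± 0.33. Psmf1 had the largest positive difference of the members, 0.55 ± 0.17 (adjusted p = 0.0596), from 0.49, 0.96, 0.76 and 0.89 in 21% O2 to 1.10, 1.07, 1.48 and 1.64 in 85% O2, with no overlap.

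Groups did not overlap for 12 of 47 members, 8 higher and 4 lower in 85% O2, beside 23.9% of all genes. The 8 were Psmd8, Psmd5, Psmf1, the core subunits Psmb1 and Psmb3, the ATPase Psmc6 and the cap subunits Psmd1 and Psmd11. The 4 were Psmb8, Psmb10, Psmg1 and Psmc3ip. The share of members is close to that of all genes.

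The 6 members with the antioxidant core in their window had 0 calls, beside 17.0% of all genes, and with so few members nothing is read from this count. Their differences were 0.11 for Psmb5, -0.0045 for Psmb6, 0.24 for Psmc6, 0.037 for Psmd12, 0.36 for Psmd9 and -0.51 for Psme4. NRF2 target genes outside the proteasome rose on the same arrays, 6 of 8, with a median of 1.22. Nqo1, a quinone reductase, rose by 3.42 ± 0.23 (limma, adjusted p = 0.0011), from -0.76, -0.76, -0.77 and -1.39 to 2.76, 2.63, 2.71 and 1.89. Gclc, for glutathione synthesis, rose by 1.41 ± 0.10 (adjusted p = 0.0011), and Srxn1, which repairs oxidised peroxiredoxins, by 1.82 ± 0.22 (adjusted p = 0.0029).

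Of 9 regulators of proteasome genes, Mafk, a small partner of NRF1 and NRF2, rose by 0.62 ± 0.12 (limma, adjusted p = 0.013), and the other 8 did not pass, Nfe2l2 at 0.43 ± 0.17 (adjusted p = 0.118) and Keap1, which holds NRF2 back, at -0.28 ± 0.12 (adjusted p = 0.125) among them. Of 11 other proteasome parts and factors, 0 were called, and Zfand5, a proteasome-binding zinc finger protein (0.35 ± 0.10, adjusted p = 0.051), and Zfand2a (0.44 ± 0.14, adjusted p = 0.059) had the smallest p. Of 12 ubiquitin and shuttle genes, 0 were called, with the autophagy receptor Sqstm1 at 0.85 ± 0.26 (adjusted p = 0.058) and Ubb at 0.23 ± 0.10 (adjusted p = 0.143).

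Of 10 antigen processing genes, 1 was called, Tap1, which carries peptides into the endoplasmic reticulum. Tap1 and Psmb9 lie head to head on chromosome 17 and their windows share 275 of 300 bases. Tap1 read -3.27, -3.14, -1.85 and -2.50 in 21% O2 and -1.72, -1.32, -0.73 and -0.88 in 85% O2, a rise of 1.53 ± 0.35 (limma, adjusted p = 0.022), with no overlap, beside -0.29 ± 0.34 for the first Psmb9 probe and 1.08 ± 0.33 for the second, so the pair cannot be compared in direction. Nlrc5, which activates MHC class I genes (0.39 ± 0.14, adjusted p = 0.093), and the interferon regulator Irf1 (-0.30 ± 0.12, adjusted p = 0.107) were not called. In the 3 comparisons that bear on NaHS, 0 genes of these 5 lists were called.

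**Figure D5:**
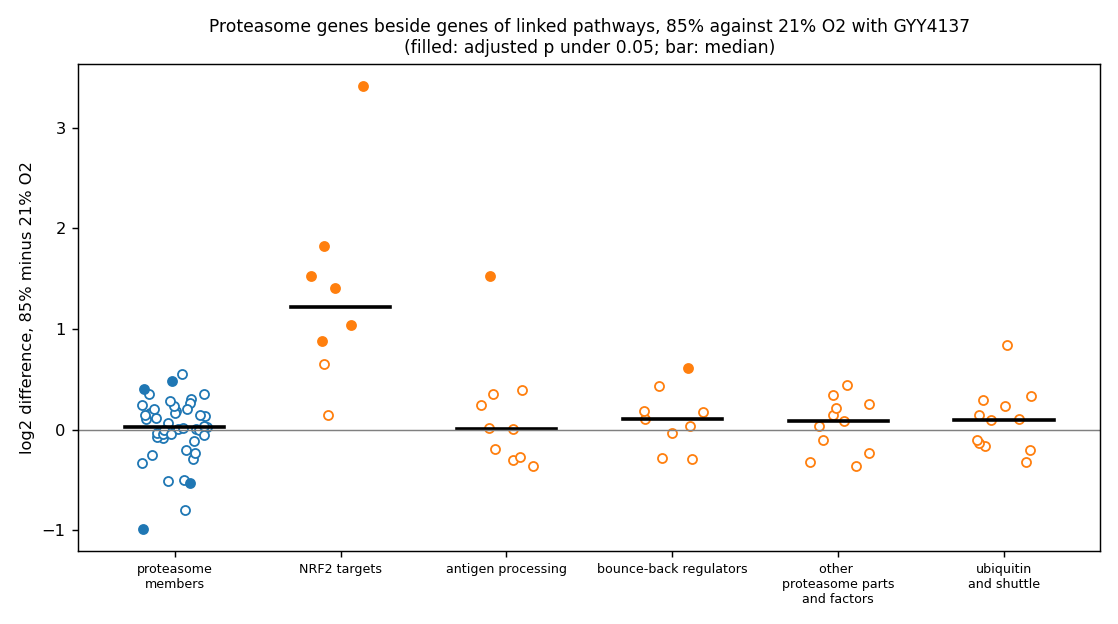
Log2 differences between 85% and 21% O2 for the members and 5 lists of linked genes, each point a gene, filled where adjusted p was under 0.05, with the median as a bar. The NRF2 targets have a median of 1.22 and the members one of 0.029.

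Markers of other cells also differed with oxygen. All 10 fibroblast and smooth muscle markers had negative differences, with a median of -0.40 and 1 called, Thy1 (-1.05 ± 0.16, adjusted p = 0.0057), and their summed level was 10.51 to 10.71 in 21% O2 and 9.97 to 10.55 in 85% O2. Of 16 macrophage markers, 14 had positive differences, with a median of 0.56 and 0 called, and their summed level was 4.90 to 5.09 and 5.0 to 5.43. Of 9 lymphocyte markers 0 were called, with a summed level of 2.65 to 2.86 and 2.65 to 2.90. Of 10 alveolar type II markers tested, Lamp3 fell by 1.04 ± 0.13 (limma, adjusted p = 0.0034), and the summed level of the list was 5.53 to 6.08 in 21% O2 and 5.21 to 5.58 in 85% O2. In 5 airway markers Foxj1 and Tppp3 rose, in 5 endothelial markers Tek rose, and in 8 alveolar type I markers Rtkn2 fell. The endothelial list went the other way from Tek, with a summed level of 2.90 to 3.24 in 21% O2 and 2.30 to 2.95 in 85% O2. For the airway list it was 1.01 to 2.46 and 1.80 to 2.82, and for the alveolar type I list 6.85 to 7.12 and 6.62 to 7.17. No marker list had a gene at background on all 24 arrays. The part of these cells in the differences of the members was not tested.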

How the data were processed

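RNA labelled with Cy3 from 24 samples was hybridised to 1-colour Agilent arrays. The deposited scanner files hold intensity values that Feature Extraction had background-subtracted and detrended, per the file headers (10.7.3.1, also in the submitters' processing notes). The authors' separate matrix of log2 values is also deposited. Its steps are not stated, and against the scanner values it matched quantile normalization within each experiment (median 5.95 on NaHS and vehicle arrays, 7.08 on GYY4137 arrays), so it served as an alternative only.

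From log2 of each processed signal the array's 75th percentile was subtracted. Control, uneven and outlier spots were left out, the spots of a probe were averaged, and the brightest of several probes stood for a gene. Genes above background on at least 4 arrays of an experiment were kept. Names are those of the newer of 2 versions of the array design, and probe coordinates are on mm9. A mean per group was fitted in each experiment by limma (3.58.1, under R 4.3.3), and p-values were Benjamini-Hochberg adjusted over all genes of a comparison at 0.05. Scripts were tested on simulated data. Figures were drawn with matplotlib 3.10.9 in Python 3.11.15.

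The members and gene lists were chosen with earlier results of these data known. Named per comparison are members that passed, up to 6 per direction, or, where fewer than 3 passed, those with the smallest p, 3 on either side of 0, besides the cutting subunits, Psme1 to Psme4 and up to 3 genes per linked list by p. Other genes were chosen after their values were seen, namely Psmd4, Psmd11, Psmd13, Psmf1, the ends of ranges and the genes with a motif. The replicate block pairs arrays by replicate number, and the labels do not say what arrays of 1 number share. Arrays of 1 number shared a slide in the NaHS experiment, and the deviations from group means of same-numbered arrays correlated between 0.53 and 0.78 there (24 of 24 pairs over 0.1) and between 0.19 and 0.30 in the GYY4137 experiment (4 of 4). In some pairs an array of another number correlated more. For replicate 3 of NaHS at 6 h and vehicle at 24 h it was 0.65 against 0.53. For replicate 2 of the GYY4137 experiment it was 0.22 against 0.19. These correlations therefore do not establish a pairing by number, and in the NaHS experiment they include the shared slide. No 2 arrays were identical. Alternatives covered scaling, background, filters, spots, probes, slide, replicate block and leaving out each array.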

Additional observations from a re-analysis of the deposited data

Results flagged for a closer look

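Among the named members, 137 groups of 4 arrays were tested for an array far from the other 3, and 7 stood out, where chance flags about 1 in 20 groups. The gap to the nearest array was compared with the range of the group, and each value is log2 signal over the array's 75th percentile.

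In 85% O2, Psma4, an alpha ring gene, read 5.11 in replicate 1, above 4.91 to 4.93 in the others. In 21% O2, the lid subunit Psmd3 read 6.06 in replicate 4, below 6.30 to 6.32. Replicate 2 of vehicle at 24 h was low for Psmb2, at 2.91 against 3.20 to 3.23. Replicate 2 of NaHS at 24 h was low for Psmb7, at 4.38 against 4.59 to 4.62, and for Psmd3, at 6.53 against 6.78 to 6.82. In vehicle at 6 h, Psmb10 read 4.29 in replicate 3, below 4.49 to 4.52, and Psme4 read 1.51 in replicate 4, below 1.86 to 1.93. The 3 low values of Psmb2, Psmb7 and Psmd3 at 24 h came from arrays of slide 2.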

How the results depend on the processing

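For the 5 comparisons of the NaHS experiment, 0 members were called under every alternative tried, so the replicate block and the slide block changed no call there. For 85% against 21% O2, the 4 calls became 9 with the normexp background (5 higher, 4 lower) and 2 with the replicate block (0 higher, 2 lower), and between 1 and 5 when single arrays were left out. Psmc3ip was called under all 18 settings and Psmg1 under 14, Psmd8 under 10 and Psmd5 under 9. The deposited table and quantile normalization called 5 (3 higher, 2 lower), and no filter on dim probes called 3 (1 higher, 2 lower). The cause of these moves was not tested. No called difference changed sign. Single-gene values that kept their side of the threshold numbered 2284, of which 142 turned sign, none of them called. Signal over background limits the second Psmb9 probe, detected on 9 of 24 arrays, and leaves Psma8 and Psmb11 untested.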
